A study of Mus musculus with 2 samples.

Results

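The locus described here is the neighbourhood of *Prdm14* on mouse chromosome 1, measured by Hi-C in wild-type and *Lin28a* knockout embryonic stem (ES) cells. It was taken as the 2 Mb window that reaches 1 Mb to each side of the *Prdm14* transcription start, and its members are 3 genes, *Prdm14* and its neighbours *Ncoa2* and *Slco5a1*, out of 7 protein-coding genes with a start in the window and 510 with a start in the analysed part of the chromosome, from 3 to 90.75 Mb. The members were chosen by name and position and not by a measured value, though earlier results of these data were known. Of the cis pairs with ends 5 kb or more apart in that part, 106286 of 3255028 in the wild-type library and 82675 of 2509097 in the knockout library had an end in the window.

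In Hi-C, fixed chromatin is cut and ends that are neighbours in the nucleus are ligated, so each read pair records a contact between 2 genomic positions. *Lin28a* encodes an RNA-binding protein that blocks maturation of *let-7* microRNAs, and the series asked how its loss bears on the nucleus of pluripotent cells. Each group held 1 library: ES cells labelled wild-type, and ES cells labelled *Lin28a* knockout. Both were cultured with mouse embryonic fibroblast (MEF) feeder cells in LIF/2i medium for 2 days, which keeps cells in the naive state, and cross-linked with 1% formaldehyde. The study used knockout ES cells of more than one origin, clones edited with CRISPR/CAS9 and lines taken from knockout mice, and the labels do not say which gave this library, so it may stand for 1 clone. Pairs from feeder cells, which are also mouse cells, cannot be told apart from those of ES cells. The labels speak of 2 replicates in a group. The read names of each list carry 2 combinations of instrument, flow cell and lane, called lanes here, with very unequal numbers of pairs. They come from 1 instrument and 1 flow cell in the wild-type, and from 2 instruments and 2 flow cells in the knockout library. Whether the lanes are the replicates is not given, so each group was analysed as 1 library and no test was made. Ratios and differences are given with 95% intervals that cover counting error only and not the spread between cultures.

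PRDM14 is a zinc finger protein of the PR domain family that binds DNA at specific sites. It is known for keeping mouse ES cells in the naive state and for the specification of primordial germ cells, where it acts with the co-repressor CBFA2T2 and lowers FGF signalling and the expression of de novo DNA methyltransferases. Chromosomes fold into domains, stretches within which contacts are more frequent than across their edges, and many edges are held by the DNA-binding protein CTCF and the cohesin ring. On a larger scale, active and gene-rich stretches (A) contact each other more than they contact inactive stretches (B).

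*Prdm14* lies at positions 13113457 to 13127163 of chromosome 1 (GRCm38, minus strand, GENCODE). *Ncoa2*, which encodes a coactivator of nuclear receptors, lies beside it at 13139105 to 13374083, and *Slco5a1*, a member of the organic anion transporter family, lies on the other side at 12866549 to 12992650, both on the minus strand. The 25 kb bin that holds the *Prdm14* start (13.125 to 13.15 Mb) also holds the 3′ end of *Ncoa2*, so contacts of the 2 cannot be separated at this bin size. The promoter bin of *Ncoa2* is 225 kb away and that of *Slco5a1* is 150 kb away. The other genes of the window are *Sulf1*, an extracellular sulfatase that trims heparan sulfate, on the side of *Slco5a1*, and *Tram1*, a protein of the endoplasmic reticulum translocon, *Lactb2*, a mitochondrial endoribonuclease, and *Xkr9*, of the XK-related family, on the side of *Ncoa2*.

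Matches to the CTCF consensus are shown because they lie in stretches that the contact profiles below turn on. The consensus, 12 bases long, was searched on both strands of GRCm38 and matched in 6 of 81 bins of the window, where 299 of 3456 bins (8.65%) of the analysed part held a match. Of 372 bins beside a domain edge, 57 (15.3%) held one. The sequences read 5′ to 3′ on the strand of the match, with the match in capitals.

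Toward *Slco5a1*, intergenic, plus strand, chr1:13050320-13050331: tagacatttCCAGCAGAGGGCgcttcggtg
Toward *Tram1*, intergenic, minus strand, chr1:13512610-13512621: acccagtggCCAGCAGATGGCccacatgtt
Beside the strongest edge, intergenic, plus strand, chr1:13789388-13789399: tcacagctgCCAGCAGATGGCagcacccct

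The first of these lay 76.8 kb from the *Prdm14* start on the side of *Slco5a1*, and the minus-strand match lay 385 kb from it on the side of *Tram1*, so these matches face each other across *Prdm14*. The other 3 bins had a minus-strand match in an intron of *Slco5a1* or of *Xkr9*, or a plus-strand match just past *Xkr9*. The minus-strand match in *Xkr9* also faces the first match across *Prdm14*. The facing matches shown were picked after the profiles were seen. The promoter bins of *Prdm14*, *Ncoa2* and *Slco5a1* held 0 matches. A match is a match of letters only, and binding was not measured here.

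Read depth at the locus was close in both libraries once scaled. The window took 3.27% of the cis pairs of the wild-type library and 3.30% of those of the knockout library, a ratio of 1.01 (1.00 to 1.02), where 43 tiles of 2 Mb had ratios from 0.974 to 1.06 with a median of 1.02. The lanes taken singly gave 3.27% and 3.22% for wild-type cells, and 3.29% and 3.32% for knockout cells. The interval of the ratio for the window includes 1 by a narrow margin, and with only the smaller wild-type lane it excluded 1. Pairs that joined the window to another chromosome made up 36.1% and 35.8% of its pairs, a difference of -0.279 points (-0.621 to 0.0626) that turned to 0.277 points (-0.195 to 0.749) in a window of 500 kb to each side. The *Lin28a* gene itself was seen only as a partner of chromosome 1, with 12 read ends in the wild-type and 15 in the knockout library, too few to check the knockout, and a small deletion would not show in such counts.

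The *Prdm14* promoter bin had 2 raised stretches of contact, 1 on each side, and both were present in both libraries at about the same level. All contacts below are given as observed over expected, where expected is the mean count of bin pairs at the same distance in the same library. From 375 to 500 kb away, past the start of *Ncoa2*, across *Tram1* and into *Lactb2*, the promoter bin had 115 wild-type pairs, 2.55 times expected (2.11 to 3.06), and 107 knockout pairs, 2.93 times expected (2.41 to 3.55). The knockout over wild-type ratio was 1.15 (0.876 to 1.51). From 50 to 100 kb away on the other side, between *Prdm14* and *Slco5a1*, it had 179 pairs at 2.25 times expected and 143 pairs at 2.32 times expected, with a ratio of 1.03 (0.821 to 1.29). Both intervals of the ratio include 1. The stretches were picked from the profiles, so their height is a description.

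**Figure D1:**
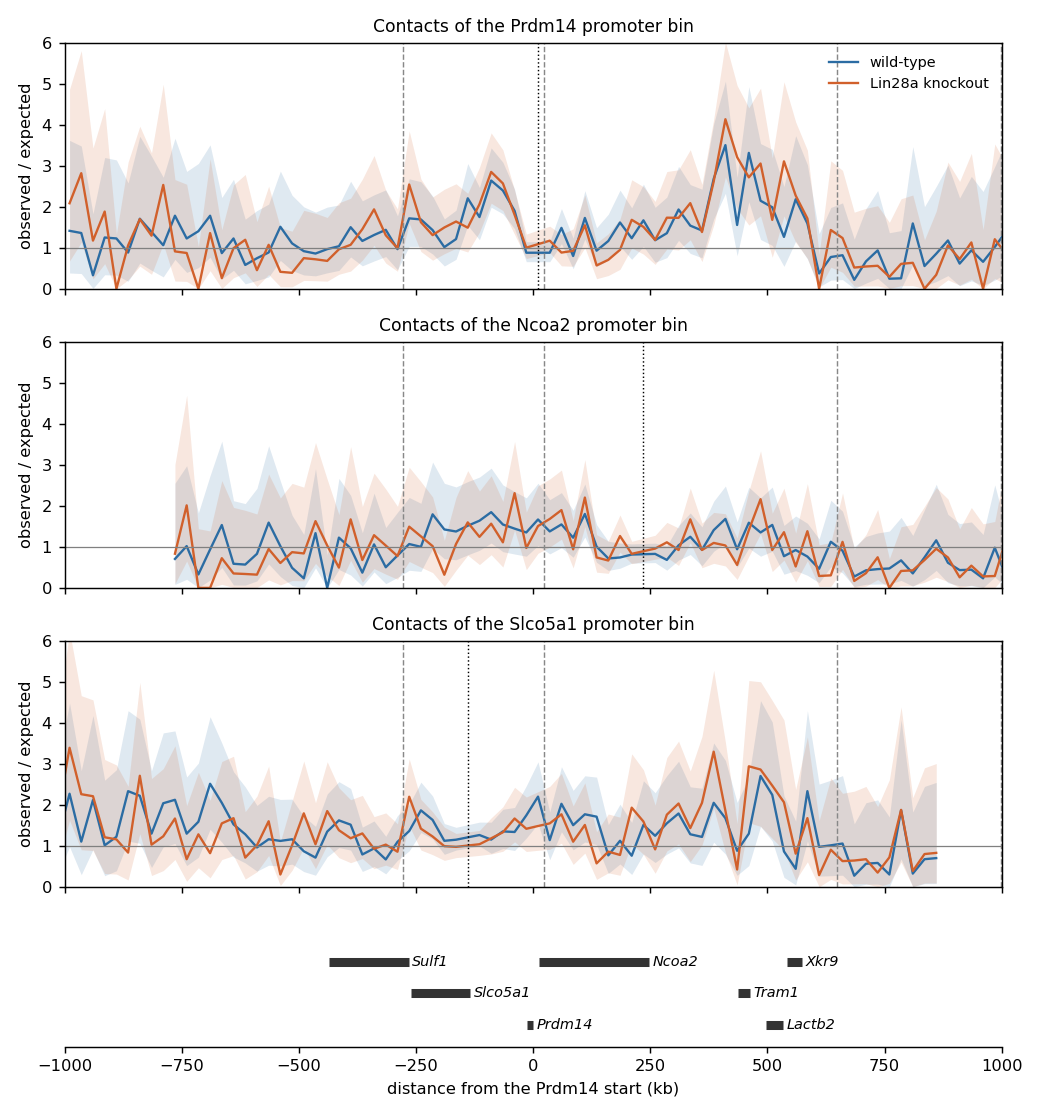
Contacts of the promoter bins of Prdm14, Ncoa2 and Slco5a1 (observed over expected, shaded 95% Poisson intervals) in 25 kb bins, against distance from the Prdm14 start in kb, with genes below, domain edges as dashed lines and each promoter bin as a dotted line. The Prdm14 profile peaks 50 to 100 kb toward Slco5a1 and 375 to 500 kb toward Tram1 in both libraries. The Ncoa2 profile has no peak of that height in these raw counts. Coverage was 1.32 times the median for the Prdm14 bin and 0.999 times for the Ncoa2 bin.

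The single bin with the highest level lay 400 kb from the *Prdm14* bin, in the intergenic stretch next to *Tram1*. It had 28 wild-type pairs (3.50 times expected) and 27 knockout pairs (4.13 times expected), a ratio of 1.18 (0.669 to 2.08). Of 3399 bin pairs at that distance, 9 (0.265%) had as many pairs in both libraries together. The bin with the *Tram1* promoter, 450 kb away, had 24 pairs (3.31) and 16 pairs (2.72), a ratio of 0.820 (0.407 to 1.61). On the other side the bin 100 kb away had 55 pairs (2.64) and 46 pairs (2.85), and 13 of 3430 bin pairs at that distance (0.379%) had as many. The order of the 3 bins was the same in both libraries only for the first place. These bins were picked as the highest of the profile, so low percentages follow from the picking. The counts are raw, from a promoter bin with 1.32 times the median coverage. The percentages cover bin pairs with as many or more pairs and include the pair itself.

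Other bins near *Prdm14* shared the contact with the stretch at *Tram1*, at lower levels in raw counts. With both libraries summed, the promoter bin stood at 2.72 times expected, and its neighbour on the side of *Ncoa2* at 2.34. The bins 100 and 50 kb toward *Slco5a1* stood at 2.29 and 2.18. The bin 75 kb toward *Slco5a1*, which holds the plus-strand CTCF match, stood at 1.65, and the bin that covers most of the *Prdm14* gene at 1.83. The bin of the plus-strand match and that of the minus-strand match toward *Tram1* shared 13 wild-type and 10 knockout pairs. These stood at 1.79 and 1.70 times expected. The promoter bin stood higher with either bin, at 2.40 and 2.57 with the first and 2.68 and 2.62 with the second. These levels are from raw counts and the stretch was picked from the profile of the promoter bin, so the order of the bins is a description. Coverage, as read ends of pairs up to 2 Mb apart in both libraries, was 2372 for the promoter bin. For its neighbour on the side of *Ncoa2* it was lower, at 1945. Whether the promoter bin still stands above this neighbour at equal coverage was not tested.

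The levels of these stretches were lower once coverage was made equal. The *Prdm14* promoter bin had 1.32 times the median coverage of all bins, and the *Slco5a1* promoter bin 1.33 times, while that of *Ncoa2* had 0.999 times. In a map balanced so that all bins have equal coverage, the stretch at *Tram1* stood at 1.91 times expected in the wild-type and 2.14 in the knockout library, and the stretch toward *Slco5a1* at 1.54 and 1.55. The *Prdm14* bin holds 66 GATC sites, the cut site that the fragment numbers of the pairs follow, where the median bin holds 62.

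**Figure D2:**
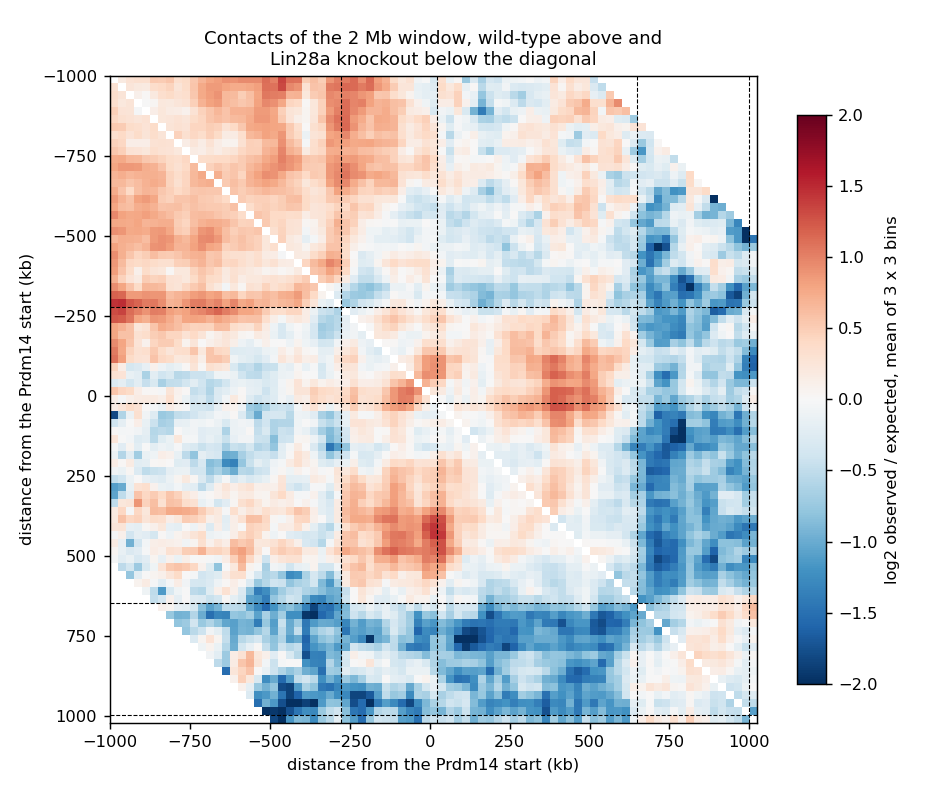
Contact map of the 2 Mb window as log2 of observed over expected contacts, each cell averaged over 3 by 3 bins, with wild-type above and Lin28a knockout below the diagonal, both axes in kb from the Prdm14 start and domain edges dashed. The patch of raised contacts between Prdm14 and the stretch toward Tram1, and the depleted band past the edge at 648 kb, appear on both sides of the diagonal.

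*Ncoa2*, although it starts closer to *Tram1*, had lower raw levels there. Its promoter bin had 114 wild-type pairs with the same stretch, 1.42 times expected (1.17 to 1.70), and 74 knockout pairs, 1.18 times expected (0.924 to 1.48), a ratio of 0.830 (0.611 to 1.12). The *Slco5a1* promoter bin, on the far side of *Prdm14*, had 60 pairs (1.80 times expected) and 63 pairs (2.31 times expected), a ratio of 1.28 (0.887 to 1.86). The stretch was picked from the profile of *Prdm14*, so lower levels from other promoters are a description. Coverage also differed, at 1.32 times the median for the *Prdm14* bin and 0.999 times for the *Ncoa2* bin. The highest single partners of *Ncoa2* were the bin from 13225001 to 13250000 inside its own gene body (33 pairs at 1.80 and 31 pairs at 2.20) and bins 275 and 325 kb away, between *Prdm14* and *Slco5a1*. Those of *Slco5a1* were bins 850 and 950 kb away on the side of *Sulf1*, with 8 pairs each in the wild-type library, and the bin 625 kb away in *Lactb2*, with 14 and 12 pairs.

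The bins from 12.85 to 12.9 Mb, at the 3′ end of *Slco5a1*, had raised raw contact with the stretch from 12.125 to 12.55 Mb. That stretch holds no protein-coding gene. There were 371 wild-type pairs, 1.72 times expected (1.55 to 1.90), and 324 knockout pairs, 1.85 times expected (1.65 to 2.06), a ratio of 1.07 (0.923 to 1.25). The *Prdm14* promoter bin stood at 1.17 and 1.14 times expected with the same stretch. The *Slco5a1* promoter bin was between them at 1.69 in the wild-type and 1.42 in the knockout library. The bins from 12.85 to 12.9 Mb also hold the 3′ end of *Sulf1*, so their contact cannot be assigned to *Slco5a1* alone. Both stretches were picked after their values were seen. Their levels are from raw counts, and both have high coverage. It was 2364 and 1961 for the bins at the 3′ end and from 1991 to 2836 for those of the far stretch. For scale, the 2372 of the *Prdm14* promoter bin is 1.32 times the median. Whether the contact is raised at equal coverage was not tested.

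In raw counts, contacts among the 3 members were at or above the distance average in both libraries. The levels in this paragraph are not corrected for coverage. It was 1.32 times the median for the *Prdm14* promoter bin, 1.33 times for that of *Slco5a1* and 0.999 times for that of *Ncoa2*. Whether the levels stay above the distance average at equal coverage was not tested. The promoter bins of *Prdm14* and *Slco5a1* shared 36 wild-type pairs, 2.21 times expected (1.54 to 3.05), and 19 knockout pairs, 1.49 times expected (0.896 to 2.33). The ratio of 0.675 had an interval of 0.366 to 1.21. Those of *Prdm14* and *Ncoa2* shared 21 pairs (1.67) and 15 pairs (1.51), a ratio of 0.904 (0.434 to 1.84), and those of *Ncoa2* and *Slco5a1* shared 13 pairs (1.52) and 11 pairs (1.60), a ratio of 1.05 (0.428 to 2.55). All 3 intervals include 1, and with so few pairs a 1.5-fold decrease could not be told from no change. The direction was not settled for any of the 3: *Prdm14* with *Slco5a1* stood at 1.64 (0.353 to 8.27) with 10 kb bins, *Prdm14* with *Ncoa2* at 1.52 (0.601 to 3.92) with shifted bins, and *Ncoa2* with *Slco5a1* at 0.727 (0.443 to 1.17) with 50 kb bins. Over gene bodies, where counts were larger, the ratios were 0.980 (0.850 to 1.13) for *Prdm14* with *Ncoa2*, 1.08 (0.890 to 1.32) for *Prdm14* with *Slco5a1* and 0.966 (0.863 to 1.08) for *Ncoa2* with *Slco5a1*. The bin of the *Prdm14* start belongs to the gene bodies of both *Prdm14* and *Ncoa2*. The value for these genes thus includes pairs between the bins of *Prdm14* itself (54 wild-type and 47 knockout pairs) and pairs within *Ncoa2*.

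Of the other promoters of the window, the bin shared by *Lactb2* and *Xkr9* had the largest ratio with *Prdm14*. It had 8 wild-type pairs (1.26 times expected) and 16 knockout pairs (3.11 times expected), a ratio of 2.46 with an interval of 0.992 to 6.63. The *Sulf1* promoter had 7 pairs (0.966) and 4 pairs (0.679) with *Prdm14*.

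Single partner bins of the *Prdm14* promoter were compared where at least 10 pairs were expected in each library, which held for 14 bins at 50 kb or more. Of these, 0 were 1.5-fold higher in the knockout library and 4 were 1.5-fold lower, where 14.4% and 14.8% of all such bin pairs of the analysed part were. The interval excluded 1 for 1 of the 14, against 3.66% of all. That bin lay 50 kb away in *Ncoa2*, with 50 wild-type pairs (1.48 times expected) and 23 knockout pairs (0.882), a ratio of 0.594 (0.346 to 0.992). The 4 lower bins all lay in *Ncoa2*, between 50 and 175 kb from *Prdm14*, and over the *Ncoa2* gene body as a whole the promoter bin had 258 pairs (1.19 times expected) and 182 pairs (1.09), a ratio of 0.913 (0.751 to 1.11). The highest ratio was 1.47 (0.673 to 3.26), for a bin in *Slco5a1*. For *Ncoa2* 2 bins were higher, 2 were lower and 0 of 14 intervals excluded 1. For *Slco5a1* 2 were higher, 0 were lower and 0 of 14 intervals excluded 1.

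Summed over all bins up to 1 Mb away, the promoters of the members had similar levels in both libraries. *Prdm14* had 1103 wild-type and 888 knockout pairs, 1.38 and 1.41 times expected, with a ratio of 1.02 (0.931 to 1.11). *Ncoa2* had 800 and 650 pairs, 1.00 and 1.03 times expected, with a ratio of 1.03 (0.925 to 1.14). *Slco5a1* had 1086 and 828 pairs, 1.36 and 1.31 times expected, with a ratio of 0.964 (0.880 to 1.06). The levels of *Prdm14* and *Slco5a1* were above those of 82.7% and 75.2% of 415 promoter bins and that of *Ncoa2* above 28.2%. These levels are raw sums and lie close to coverage, which was 1.32, 1.33 and 0.999 times the median for the 3 bins. The ranks thus largely restate coverage. All 3 ratios lie within the range that holds 5 to 95% of the 415, from 0.891 to 1.12, and 12% of them had an interval that excluded 1. *Sulf1* was among these, at 0.901 (0.822 to 0.986). *Sox17*, a transcription factor of endoderm on the same chromosome, stood at 0.979 and *Ncl*, which encodes nucleolin, at 1.04.

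**Figure D3:**
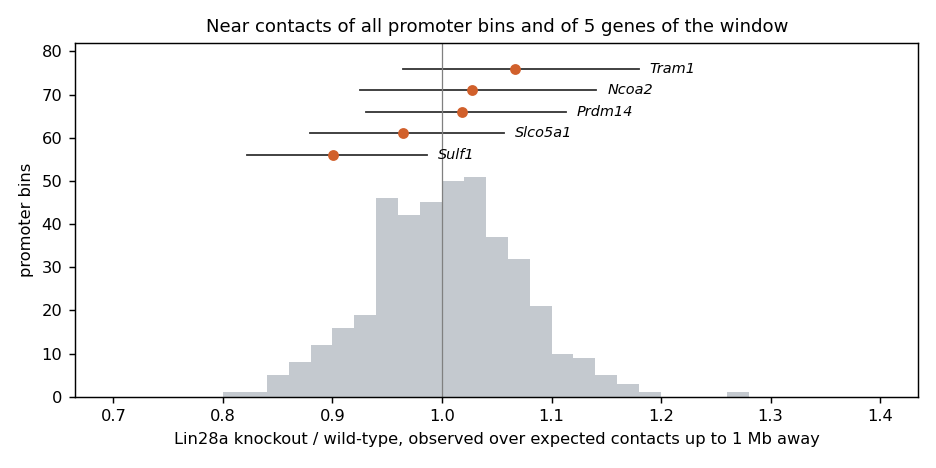
Number of promoter bins (grey, 415 in all) at each knockout over wild-type ratio of contacts up to 1 Mb away, observed over expected, with the ratio (point) and 95% interval (line) of 5 genes of the window at arbitrary heights. Prdm14, Ncoa2 and Slco5a1 lie at 1.02, 1.03 and 0.964, inside the bulk of all promoter bins.

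The deepest domain edge of the window lay beyond *Xkr9* and was at the same border in both libraries. The insulation score used here is log2 of observed over expected contacts across each border between bins, in a square of 250 kb, so that low values mark edges. The lowest score of the window was at 13.775 Mb, 73.3 kb past *Xkr9*, at -1.04 in the wild-type and -1.08 in the knockout library (difference -0.04, -0.21 to 0.13). By depth against its surroundings it ranked 9 of 188 edges. One bin beside it holds the last CTCF match shown above. Past this edge the *Prdm14* promoter bin had 43 wild-type pairs, 0.770 times expected, and 30 knockout pairs, 0.641 times expected, and *Ncoa2* had 47 pairs (0.565) and 37 pairs (0.543).

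On the other side, the edge at 12.85 Mb near the 3′ end of *Sulf1* ranked 76 of 188 by depth, with scores of -0.18 and -0.15 and a difference of 0.02 (-0.10 to 0.15). A weak minimum at 13.15 Mb, inside *Ncoa2* and 22.8 kb from the *Prdm14* start, had scores above the distance average, 0.21 and 0.15, a difference of -0.06 (-0.17 to 0.05), and in the knockout map alone it lay 25 kb away. The fourth edge, at 14.125 Mb near *Eya1*, a transcriptional coactivator of organ development, scored -0.03 and -0.11. The interval of the difference included 0 at all 4 edges, where it excluded 0 at 11.7% of the 188 edges. For the fourth edge this changed with the processing: the difference of -0.09 (-0.21 to 0.03) became -0.12 (-0.19 to -0.06) with a square of 500 kb, -0.13 (-0.27 to -0.00) with a mapping quality of 30 or more, and 0.03 (-0.09 to 0.15) in the balanced map.

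**Figure D4:**
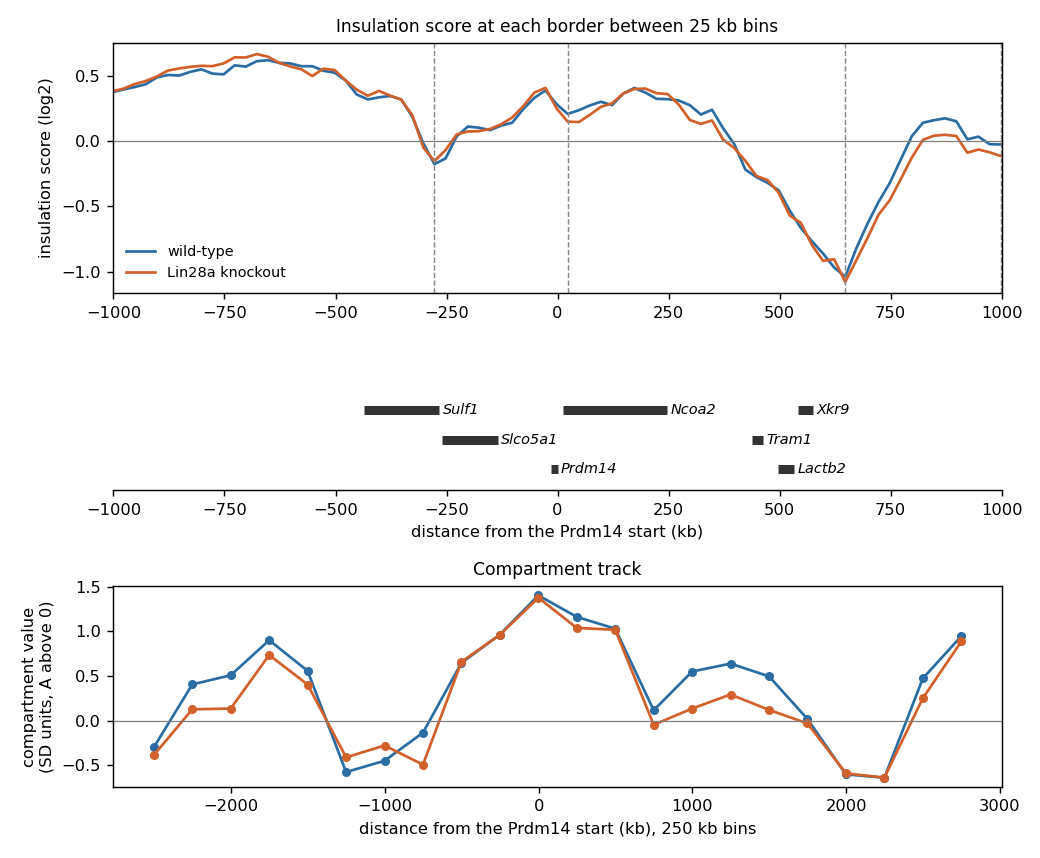
Top, insulation score (log2) of each border in the wild-type and Lin28a knockout library against distance from the Prdm14 start in kb, with domain edges dashed and genes below. Bottom, compartment value in SD units of 250 kb bins over a wider stretch. The 2 score lines cross several times up to the edge at 648 kb, beyond which the knockout line lies lower, by 0.16 at most. These scores are from raw counts. In the balanced map the differences at the edges at 648 and 998 kb were 0.02 and 0.03. The compartment value is also lower in the knockout library in the bins from 13.75 to 15 Mb, as it is in the bins at 11 and 12.25 Mb on the other side.

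Of 82 borders in the window, 6 had a difference in score whose interval lay below 0 and 0 had one above 0, where the interval excluded 0 at 18.9% of all borders. Of the 6, 5 lay side by side past the strong edge, with the lowest at 13.925 Mb, where the score was 0.04 in the wild-type and -0.13 in the knockout library (difference -0.16, -0.28 to -0.04). Neighbouring squares share most of their pairs, so these 5 are not separate measurements. They are from raw counts, and their balanced values were not computed. At the edges to either side, 13.775 and 14.125 Mb, the difference in the balanced map was 0.02 and 0.03. The borders from *Slco5a1* to *Prdm14* had 0 such differences, and 1 of the 6 lay between *Ncoa2* and *Tram1*.

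The share of *Prdm14* contacts kept in its domain was about equal in both libraries. Between the edges at 12.85 and 13.15 Mb lay 35.4% of the contacts of its promoter bin up to 1 Mb away in the wild-type library (390 of 1103) and 36.4% in the knockout library (323 of 888), 1.02 percentage points higher (-3.22 to 5.26), where the distance average would give 30.1% and 29.4%. Between the deeper edges at 12.85 and 13.775 Mb, it was 79.4% and 81.0%, a difference of 1.55 points (-1.97 to 5.06). For *Ncoa2* the difference was 0.971 points (-4.01 to 5.96) between its nearest edges and -1.84 points (-5.78 to 2.11) between the deeper ones, and for *Slco5a1* it was -3.56 points (-8.00 to 0.874) and -0.628 points (-4.85 to 3.6). Between its nearest edges *Ncl* differed by -2.72 points (-7.34 to 1.90) and *Sox17* by -4.76 points (-9.35 to -0.163), and between edges of the deeper kind they differed by -8.14 points (-12.8 to -3.48) and -5.05 points (-9.25 to -0.836). The value for *Ncl* thus rests on the choice of edges, and whether *Prdm14* differs from these genes was not tested.

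All 3 members lay in A-type chromatin in both libraries. The compartment value of 250 kb bins, in SD units with A above 0, was 1.41 in the wild-type and 1.38 in the knockout library for the bin of *Prdm14*, above 87.4% of bins. It was 1.16 and 1.04 for *Ncoa2*, and 0.965 and 0.962 for *Slco5a1*. The differences of -0.03, -0.12 and -0.00 were smaller than the SD of the difference over 348 bins, 0.155. The difference for *Prdm14* had no settled direction: with 100 kb bins it was 0.228 (1.21 in the wild-type and 1.44 in the knockout library), above the SD of 0.196 over 868 such bins, and with a mapping quality of 30 or more it was 0.04. For *Ncoa2* and *Slco5a1* the differences with 100 kb bins were -0.169 and 0.124, under that SD. Outside the strong edge, the bins from 14 to 14.75 Mb around *Eya1* were lower in the knockout library by more, with 0.551 against 0.134 in the first of them and 0.639 against 0.292 in the bin of *Eya1*. The difference of -0.347 there lay outside the range that holds 5 to 95% of bins, from -0.260 to 0.223. Drops of similar size were also present on the side of *Sulf1*, at 12.25 Mb inside the window (-0.136 against -0.495, a difference of -0.359) and at 11 Mb beyond it (0.509 against 0.135, a difference of -0.374).

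Contacts at 2 Mb or more were counted with A and with B bins, and their ratio was taken as the preference for A, on a log2 scale. The window preferred A, at 0.52 in the wild-type and 0.48 in the knockout library (difference -0.04, -0.08 to -0.00), where the interval excluded 0 in 46.5% of 43 tiles. It included 0 with only the top and bottom 20% of the compartment track (-0.07, -0.13 to 0.00) and for pairs 10 Mb or more apart (-0.04, -0.10 to 0.01). The 250 kb bin of *Prdm14*, a measure added after the data were seen, differed in the other direction, with 0.92 in the wild-type and 1.08 in the knockout library (difference 0.17, 0.05 to 0.28). For pairs 10 Mb or more apart the difference was 0.15 with an interval that included 0 (-0.01 to 0.30). Among single bins the interval excluded 0 in 29% of 348, and 23 had a higher difference than that of *Prdm14*. *Ncoa2* and *Slco5a1* had differences of -0.05 (-0.16 to 0.06) and -0.01 (-0.12 to 0.11).

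The window had a smaller share of far pairs in the knockout library. Pairs 10 Mb or more apart made up 29.1% of its cis pairs in the wild-type and 25.2% in the knockout library (difference -3.86 percentage points, -4.26 to -3.46). Pairs from 1 to 10 Mb apart made up 29.0% and 32.4%, a difference of 3.45 points (3.04 to 3.87). The same held along the chromosome: the difference for 10 Mb or more was below 0 in 43 of 43 tiles, from -5.25 to -0.769 with a median of -2.47, and that for 1 to 10 Mb was above 0 in 43 of 43, from 1.47 to 3.64. Pairs from 5 to 20 kb made up 4.76% and 4.81%, a difference of 0.05 points (-0.14 to 0.24), where the tiles had a median of -0.213 and 3 of 43 were higher in the knockout library.

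A list of 26 genes on other chromosomes that act in naive pluripotency or with PRDM14 was examined as trans partners of the window, with 1 Mb around each. Together they had 832 wild-type pairs, 0.941 times the number expected from their share of all trans pairs, and 706 knockout pairs, 1.02 times, a ratio of 1.08 (0.978 to 1.20). The median ratio was 1.06 over the list and 0.968 over 2152 tiles of 1 Mb, and the interval excluded 1 for 3 of the 26, against 4.28% of the tiles. *Dnmt3a*, a de novo DNA methyltransferase, had 48 and 70 pairs, a ratio of 1.69 (1.15 to 2.49). *Tet2*, which oxidises methylcytosine, had 7 and 12 pairs, a ratio of 2.80 (1.02 to 8.38). *Suz12*, a subunit of the Polycomb complex that methylates histone H3, had 48 and 17 pairs, a ratio of 0.494 (0.266 to 0.875). The pluripotency factors *Pou5f1*, *Sox2* and *Nanog* had 39 and 35, 36 and 35, and 28 and 24 pairs, with intervals that include 1, and *Cbfa2t2*, the partner of PRDM14, had 31 and 15 pairs, a ratio of 0.739 (0.371 to 1.41). Far along chromosome 1, *Tfcp2l1* and *Nr5a2*, also regulators of naive pluripotency, had 116 and 43 pairs and 77 and 26 pairs with the window, with ratios scaled for distance of 0.740 (0.509 to 1.06) and 0.708 (0.435 to 1.12).

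The promoters whose profile was most like that of *Prdm14*, by Pearson's r over 78 offsets with both libraries summed, were those of *Mcm3* (r = 0.574), *Ihh* (0.529) and *Kcnj13* (0.519), among 409 promoter bins with a median r of 0.03. The offsets of a profile are not independent, and these values are a description.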

How the data were processed

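The files hold lists of valid Hi-C read pairs, 1 line per pair, and each group had 1 list. Per the labels (the submitters' processing notes), the authors used CASAVA 1.8, Bowtie2 and HiC-Pro with the mm10 build. Settings, restriction enzyme, filters and pooling of the 2 replicates are not given in the sources used here, and the paper's methods leave the assay out. The deposited columns used were the position of each end and its mapping quality score, from 11 to 42. The deposited files hold no normalized value, and lengths matched GRCm38. Fragment numbers followed GATC sites (1988 and 1992 of 2000 ends checked, within 1).

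The wild-type list analysed here was partial and ended at 90862049 of chromosome 1, so pairs with a first end from 3 to 90.75 Mb were used in both libraries (5246689 and 503545 pairs in the 2 sequencing lanes given by the flow cell and lane fields of the wild-type read names, 4211205 and 187494 in those of the knockout list; whether a lane is a replicate is not given). The knockout list also held 1 incomplete line, but it reached 195371578 of chromosome 1, beyond the part used. Cis pairs 5 kb or more apart were counted in 25 kb bins. Bins under 20% of the median coverage were left out (3456 of 3510 kept). Expected counts were the mean per bin pair at the same distance in the same library, taken as fixed. Edges were minima of the insulation score with a prominence of 0.1 or more in the summed map. The compartment track was the leading eigenvector at 250 kb. Counts have exact Poisson intervals, shares exact binomial (Clopper-Pearson) intervals, ratios the exact binomial split, and differences of shares and log ratios normal intervals, all at 95%. PCR copies are not independent molecules, so these cover counting error only. Python 3.11.15, NumPy 2.4.6 and SciPy 1.17.1 were used, and the steps were tested on simulated data.

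The members and lists were chosen with earlier results of these data known. Named were the members and all protein-coding genes of the window, for each promoter bin the 3 highest partner bins (50 kb to 1 Mb) and the 3 highest and 3 lowest ratios with 10 or more expected pairs, *Sox17*, *Ncl*, *Lin28a*, 26 trans and 2 far cis partner genes, and the 3 most alike profiles. The stretches of raised contact, the preference for A of single 250 kb bins, *Eya1* and the CTCF matches outside edge bins were added after their values were seen. Promoter sequences of the members were not used here, 1 CTCF match per bin was listed, and a further match is not reported here. Alternatives were the mapping quality, minimum distance, window, bin size, insulation square, local expected counts, balancing, depth and sequencing lanes.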

Additional observations from a re-analysis of the deposited data

How the results depend on the processing

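Of 167 values recomputed under 22 alternative settings, 156 stayed within the interval of the reported value (for compartment values, within 1 SD of the difference over bins, and for the count of edges, within 1.5 times), 11 moved outside it and 0 changed the direction of a value whose interval excluded no change. Some of these values could not move, such as compartment values of a library that a setting left untouched. The edges of the wild-type map around *Prdm14* were those of the summed map. The larger lanes hold most pairs of their library. Direction was scored only where the reported interval excluded no change, so these counts do not measure stability. With 10 kb bins, which leave few pairs, the promoter ratios were 0.424 for *Prdm14* with *Ncoa2* (0.00808 to 5.28), 1.64 for *Prdm14* with *Slco5a1* (0.353 to 8.27) and 2.49 for *Ncoa2* with *Slco5a1* (0.13 to 147). With the borders of the bins shifted the ratio of *Prdm14* with *Ncoa2* was 1.52 (0.601 to 3.92) in place of 0.904, and with 50 kb bins that of *Ncoa2* with *Slco5a1* was 0.727 (0.443 to 1.17) in place of 1.05, so the direction was not settled for any of the 3 pairs. The insulation square set the number of edges in the window, with 7 for a smaller square and 2 for a square of 500 kb in place of 4. With 100 kb bins the compartment values in the wild-type and knockout libraries were 1.21 and 1.44 for *Prdm14*, so that the direction of the difference turned, 1.14 and 0.975 for *Ncoa2*, and 0.554 and 0.677 for *Slco5a1*. With only the smaller wild-type lane, the share of cis pairs in the window had a ratio of 1.02 (1.00 to 1.05), the trans share a difference of -0.714 percentage points and the share of pairs 10 Mb or more apart a difference of -3.42 points. With a window of 500 kb to each side the trans share differed by 0.277 points in place of -0.279. The ratio for the stretch toward *Tram1* ran from 1.05 to 1.24 and the difference in preference for A of the *Prdm14* bin from 0.15 to 0.20 (alternatives chosen after seeing the data). No paired analysis was possible because each group has 1 library. Whether an interval excluded no change also depended on the setting for the share of cis pairs in the window (1 was excluded with the smaller wild-type lane), for the insulation edge at 14.125 Mb and for the preference for A of the window and of the *Prdm14* bin, as given above. The culture, the clone and the sequencing lanes and instruments cannot be told apart from the genotype. Single 25 kb bin pairs held few counts, and ratios as large as 1.71 (*Ncoa2* with the bin 50 kb away) and 2.46 (*Prdm14* with *Lactb2*) had intervals that include 1.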
